A study of Mus musculus with 12 samples.

Results

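The genes described here are 15 genes of the extracellular matrix and of growth factor signaling, measured in T cell isolates from mouse tumors. They are the endogenous genes of the nCounter Mouse Metabolic Pathways panel whose names begin with Col and a digit, with Lama, Lamb or Lamc, or with Pdgf, Vegf, Fgf, Egf, Igf, Thbs, Tgfb or Fn1, and they make up 15 of the 748 endogenous genes. They fall into 5 collagen genes (Col4a1, Col4a2, Col6a1, Col6a2 and Col6a3), 3 laminin genes (Lama4, Lamb1 and Lamc1), 2 thrombospondin genes (Thbs1 and Thbs2), 3 growth factor genes (Vegfa, Pdgfb and Fgf1) and 2 growth factor receptor genes (Egfr and Pdgfrb). The panel holds no gene whose name begins with Igf, Tgfb or Fn1.

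Female C57BL/6 mice aged 8 to 10 weeks carried subcutaneous tumors of KPC.Luc, a mouse pancreatic ductal adenocarcinoma line that makes luciferase, so the tumors grew outside the pancreas. Treatment began 6 to 7 days after implantation and lasted 10 days, with 10 µg of peptide under the skin daily and 200 µg of antibody into the peritoneum every 3 days. T cells were then pulled from each tumor with magnetic beads against CD90.2, at a purity that the study's methods put at 80 to 85%. The comparisons ask how blocking the receptors of vasoactive intestinal peptide (VIP), blocking PD-1, or both, changed the RNA of these isolates. In the control group, Scram+IgG, the peptide had a scrambled sequence and the antibody was isotype IgG. ANT008+IgG mice received ANT008, a peptide antagonist of VIP receptors, and isotype IgG. Anti-PD-1 was paired with the scrambled peptide in Scram+aPD-1 and with ANT008 in ANT008+aPD-1. Each group had 3 mice, each mouse filled 1 lane, and the 12 lanes hold whole counts of single RNA molecules.

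Collagens and laminins are the building blocks of the scaffold around cells. Type IV collagen and laminins form the sheet-like basement membrane under epithelium and around blood vessels and nerves, while type VI collagen forms beaded filaments between that sheet and the looser tissue beyond it. In pancreatic tumors this scaffold is made largely by fibroblasts, with contributions from tumor and vessel cells, and growth factors such as VEGF-A and PDGF-B carry signals between these cells. Resting T cells are not a main source of such matrix.

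The total endogenous count was 1388586, 256703 and 1486646 in Scram+IgG mice 1 to 3, and it was 1357305, 202511 and 100293 in ANT008+IgG mice 1 to 3. With Scram+aPD-1 it was 1480466, 664792 and 93480, and with ANT008+aPD-1 it was 5776, 268678 and 24813. Below, the values of a group are given in the order of mice 1 to 3. A count was taken as above background where it exceeded the mean plus 2 SD of the lane's 8 negative control probes, a level between 9.94 and 28.2 counts. Members above that level numbered 15, 13 and 15 in the Scram+IgG lanes, 15, 13 and 14 in the ANT008+IgG lanes, 15, 15 and 12 in the Scram+aPD-1 lanes and 3, 13 and 7 in the ANT008+aPD-1 lanes. ANT008+aPD-1 mice 1 and 3 had the lowest totals of the 12 lanes and the fewest members above background, and no member had more than 16 counts in mouse 1 or 53 in mouse 3. The deposited table carries the word FLAG over Scram+IgG mouse 1 and ANT008+IgG mouse 1 and gives no reason for it. A scaled count is the count divided by the lane's size, taken from the housekeeping genes Dnajc14, Oaz1 and Ubb. On that scale the ANT008+aPD-1 lanes had a background of 358, 13.8 and 149, and the other 9 lanes had one between 3.42 and 46.3. Scaled counts of ANT008+aPD-1 mice 1 and 3 near those levels therefore carry background as well as signal.

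Each of the 15 members exceeded background in at least 3 lanes, so 15 of 15 were tested together with the other genes, 640 in all. Col6a1, Col6a2 and Vegfa were above background in 12 of 12 lanes. Col4a1, Lamb1, Lamc1 and Thbs1 were above it in 11 lanes, Col4a2, Col6a3, Egfr, Pdgfb and Thbs2 in 10 and Fgf1 in 9. Pdgfrb was above background in 6 lanes and Lama4 in 5, and neither exceeded it in any ANT008+aPD-1 lane. The spread between mice of a group was wide. The median over genes of the within-group SD of log2(scaled count + 1) was 0.81 for the 15 members and 0.70 for all 640 tested genes.

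**Figure D1:**
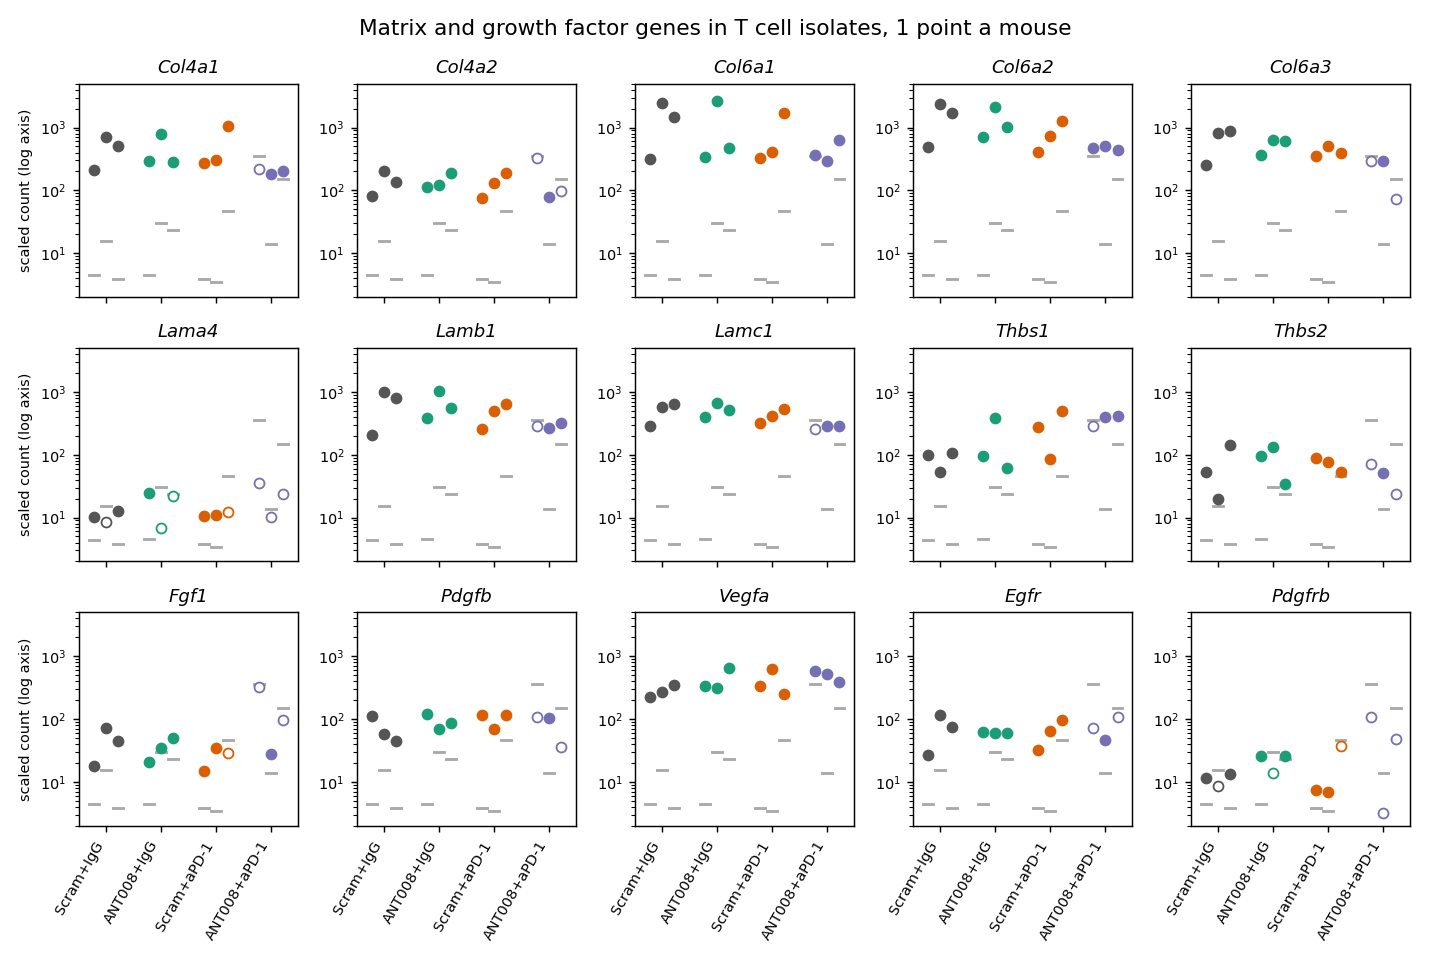
Scaled count (log axis, count divided by lane size) of each of the 15 genes in each mouse, 3 mice in each of the 4 groups in the order of mice 1 to 3; filled points are above the lane's background, open points are not, and the grey ticks are the scaled background. The 3 ANT008+aPD-1 values of Col6a2 lie between 433 and 514, while those of Scram+IgG run from 489 to 2404. The scaled background of the ANT008+aPD-1 lanes is 358, 13.8 and 149.

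Together the 15 genes held a small part of each lane's endogenous count, which is given here with its exact Clopper-Pearson 95% interval. That part was 1.06% (1.05 to 1.08), 3.58% (3.51 to 3.66) and 3.00% (2.97 to 3.03) with Scram+IgG and 1.57% (1.55 to 1.59), 2.59% (2.52 to 2.66) and 2.30% (2.21 to 2.40) with ANT008+IgG. It was 1.10% (1.09 to 1.12), 1.97% (1.94 to 2.00) and 1.80% (1.71 to 1.88) with Scram+aPD-1 and 1.82% (1.49 to 2.20), 1.46% (1.41 to 1.503) and 1.07% (0.944 to 1.20) with ANT008+aPD-1. The intervals cover counting error only, and the groups overlap. The group means were 2.55% ± 1.32, 2.16% ± 0.525, 1.62% ± 0.459 and 1.45% ± 0.375 (SD, n = 3 each) for, in turn, the controls, ANT008 alone, anti-PD-1 alone and both agents. After the mean of the lane's negative controls was subtracted from each gene, the part was 1.45% in ANT008+aPD-1 mouse 1 and 0.886% in mouse 3, below the intervals of the unsubtracted values. Within Scram+IgG, mouse 1 stood far below mice 2 and 3.

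Much of this came from type VI collagen. Its 3 chains Col6a1, Col6a2 and Col6a3, which wind into 1 triple helix, made up 0.467% (0.456 to 0.479), 2.33% (2.27 to 2.39) and 1.76% (1.74 to 1.78) of the endogenous count with Scram+IgG. They made up 0.658% (0.644 to 0.671), 1.55% (1.5 to 1.61) and 1.04% (0.982 to 1.11) with ANT008+IgG. With Scram+aPD-1 the part was 0.411% (0.401 to 0.422), 0.821% (0.799 to 0.843) and 0.881% (0.823 to 0.943). In the ANT008+aPD-1 lanes it was 0.537% (0.365 to 0.761), 0.520% (0.493 to 0.548) and 0.383% (0.310 to 0.468). The ANT008+aPD-1 lanes were low and close together, and Scram+IgG mice 2 and 3 were the highest of the 12. Scram+IgG mouse 1 and Scram+aPD-1 mouse 1 fell among the ANT008+aPD-1 values. The most abundant member by count was Col6a1 or Col6a2 in 10 of 12 lanes and Vegfa in ANT008+aPD-1 mice 1 and 2.

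The T cell label of the isolates was checked with a list of 15 T cell markers, of which 12 are on the panel. All 12 were above background in each lane except ANT008+aPD-1 mouse 1, where 6 were, and none was at a count of 0. Their summed count was 34186, 1006 and 6178 in Scram+IgG, 23360, 1092 and 935 in ANT008+IgG, 20919, 6592 and 693 in Scram+aPD-1 and 137, 5430 and 483 in ANT008+aPD-1. As a part of the endogenous count they held 2.46% (2.44 to 2.49), 0.392% (0.368 to 0.417) and 0.416% (0.405 to 0.426) with Scram+IgG and 1.72% (1.70 to 1.74), 0.539% (0.508 to 0.572) and 0.932% (0.874 to 0.994) with ANT008+IgG. The values were 1.41% (1.39 to 1.43), 0.992% (0.968 to 1.02) and 0.741% (0.687 to 0.798) with Scram+aPD-1 and 2.37% (2.00 to 2.80), 2.02% (1.97 to 2.07) and 1.95% (1.78 to 2.13) with ANT008+aPD-1. Cd3d, Cd3g or Cd28 was the most abundant marker in every lane. The T cell part was high in all ANT008+aPD-1 lanes and in Scram+IgG mouse 1, and it was lowest in Scram+IgG mice 2 and 3, where type VI collagen was highest. The 6 lanes with the highest T cell part were the 6 lanes with the lowest collagen VI part, 2 parts of 1 total.

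Within a lane, the ratio of collagen VI counts to T cell marker counts does not depend on the scaling. It was 0.190, 5.94 and 4.24 with Scram+IgG and 0.382, 2.88 and 1.12 with ANT008+IgG. It was 0.291, 0.828 and 1.19 with Scram+aPD-1 and 0.226, 0.257 and 0.197 with ANT008+aPD-1. The ratio thus ran from 0.190 in Scram+IgG mouse 1 to 5.94 in Scram+IgG mouse 2, so 1 group held both the lowest and the highest of the 12. The part of these marker levels in the matrix results was not tested. In such bulk isolates fewer cells of a type and less RNA per cell cannot be told apart.

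**Figure D2:**
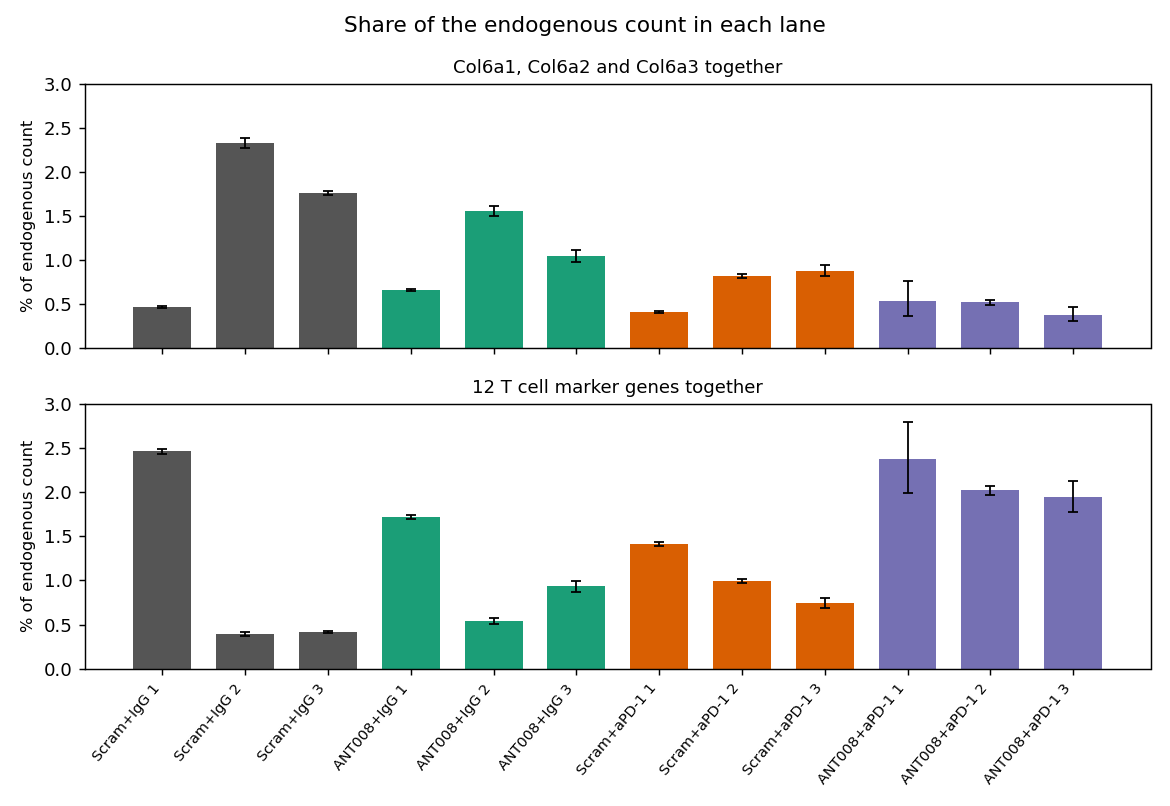
Percent of the endogenous count in each of the 12 lanes that came from the 3 collagen VI genes (upper bars) and from 12 T cell marker genes (lower bars), colored by group; error bars are exact Clopper-Pearson 95% intervals. The collagen VI part was 2.33% and 1.76% in Scram+IgG mice 2 and 3, where the T cell part was 0.392% and 0.416%.

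Markers of other cells were few on this panel. None of 8 epithelial tumor cell markers was on it, so tumor cell RNA could not be checked. Of 9 fibroblast markers only Pdgfrb was measured, which is itself 1 of the 15 genes, so the stromal label rests on 1 defining marker that was above background in 6 of 12 lanes. Of 8 endothelial markers only Flt1, the VEGF receptor 1 of blood vessels and some myeloid cells, was measured. Flt1 counts were 279, 138 and 516 in Scram+IgG, 246, 48 and 31 in ANT008+IgG, 248, 149 and 21 in Scram+aPD-1 and 1, 47 and 2 in ANT008+aPD-1, and those of ANT008+aPD-1 mice 1 and 3 were at or below background.

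Among markers of myeloid cells, scaled counts of Cd14 were 221, 99.9809 and 149 in Scram+IgG, 223, 370.0 and 169.7 in ANT008+IgG, 344, 147 and 525 in Scram+aPD-1 and 1009, 551 and 890.4 in ANT008+aPD-1. Those of Itgam were 276, 50.5 and 86.8 in Scram+IgG, 356, 148 and 122 in ANT008+IgG, 371, 179 and 234 in Scram+aPD-1 and 288, 346 and 277 in ANT008+aPD-1, and those of Cd68 were 830.2, 161 and 286 in Scram+IgG, 679, 614 and 179.6 in ANT008+IgG, 1112, 399.6 and 705 in Scram+aPD-1 and 505, 562 and 806 in ANT008+aPD-1. Of these values only that of Itgam in ANT008+aPD-1 mouse 1, with 8 counts, was below background. The part that other cells in the isolates had in the results was not tested.

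The comparison of ANT008+aPD-1 with Scram+IgG asks what both agents together did. On the fitted scale 6 of the 15 genes were higher and 9 lower, with a median log2 fold change of -0.07 against 0.12 over all tested genes. All 5 collagens were lower (median -1.57), as were 2 of 3 laminins (median -0.84), while all 3 growth factors were higher on the fitted scale (median 0.82). Of the 6 higher members, 4 (Fgf1, Lama4, Pdgfb and Pdgfrb) were at or below background in at least 2 of the 3 ANT008+aPD-1 lanes. With background subtracted 3 of the 15 were higher (Fgf1, Thbs1 and Vegfa), and without ANT008+aPD-1 mice 1 and 3 also 3 (Pdgfb, Thbs1 and Vegfa), so only Thbs1 and Vegfa were higher in both. Of the thrombospondins, 1 was higher and 1 lower. Of the receptors, Pdgfrb was higher and Egfr lower, and both turned to the other side of the median of all genes when lanes were scaled by the positive control probes, a scaling that moves that median from 0.12 to -4.37. The 5 collagens, Lamb1 and Lamc1 stayed below that median, and Thbs1, Vegfa, Pdgfb and Fgf1 above it, under each of 5 other scalings, namely TMM, positive controls, total count, all housekeeping genes and, within its own fit, the size factors of DESeq2. At an FDR below 0.1 edgeR's quasi-likelihood test called 0 of 15 members and 0 of 640 genes (0%). At an unadjusted p below 0.05 there were 3 members (Thbs1 higher, Col6a2 and Col6a3 lower) among 82 genes (12.8% of those tested). There were 144 genes at that p without Scram+IgG mouse 1 and 35 without ANT008+aPD-1 mouse 3. The other tools run at the same FDR called 30 genes and 2 members (Col6a2 and Thbs1) with DESeq2, 156 genes and 4 members (Col6a2, Col6a3, Lamc1 and Thbs1) with limma's voom and sample weights, and 0 genes with limma on log2 values. Without Scram+IgG mouse 1, edgeR called 84 genes and 4 members (Col6a2, Col6a3, Lamb1 and Lamc1), and without ANT008+aPD-1 mouse 2 it called 68 genes and 0 members. Without both lanes marked FLAG it called 83 genes and the same 4 members as without Scram+IgG mouse 1, and without ANT008+aPD-1 mice 1 and 3 it called 0 genes. Scaled counts of 2 members, Thbs1 and Vegfa, were higher in every ANT008+aPD-1 mouse than in every Scram+IgG mouse, and the same held for 50 of 640 genes (7.81%). For both members the scaled background of ANT008+aPD-1 mouse 1, 358, itself exceeded every Scram+IgG value. In the other direction 0 members and 37 genes (5.78%) were apart.

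Col6a2 and Col6a3 encode chains of type VI collagen, the filament network that links cells to the surrounding matrix. Scaled counts of Col6a2 were 489, 2404 and 1722 in Scram+IgG, 716, 2086 and 1014 in ANT008+IgG, 405, 737 and 1250 in Scram+aPD-1 and 469, 514 and 433 in ANT008+aPD-1. The ANT008+aPD-1 values were low and close together, and the Scram+IgG values ranged from 489 in mouse 1 to 2404 in mouse 2, so that the groups overlapped. Raw counts of Col6a2 in the ANT008+aPD-1 lanes were 13, 652 and 36, all above background, and the scaled backgrounds were 358, 13.8 and 149. The close values of mice 1 and 3 thus carry background as well as signal. The log2 fold change was -1.70 (SE 0.63, edgeR FDR 0.323, n = 3 mice each). Scaled counts of Col6a3, the longest chain, were 249, 807 and 872 in Scram+IgG, 363, 644 and 605 in ANT008+IgG, 351, 508 and 393 in Scram+aPD-1 and 288, 290.4 and 72.2 in ANT008+aPD-1, and the raw counts in the ANT008+aPD-1 lanes were 8, 368 and 6, the first and last of them at or below background. Scram+IgG mice 2 and 3 were the highest of the 12 and mouse 1 lay below the ANT008+aPD-1 values of mice 1 and 2. The log2 fold change was -1.57 (SE 0.57, edgeR FDR 0.323). Scaled counts of Col6a1 were 317, 2481 and 1498 in Scram+IgG, 339.8, 2683 and 471 in ANT008+IgG, 327, 409.6 and 1734 in Scram+aPD-1 and 360.4, 298 and 638 in ANT008+aPD-1. The highest value of each of the other 3 groups lay far above the ANT008+aPD-1 mice, and the lowest lay among them. Its log2 fold change was -1.73 with an FDR of 0.458 by edgeR. With ANT008+aPD-1 mouse 2 as the only mouse of its group, the log2 fold changes of Col6a1, Col6a2 and Col6a3 were -2.26, -1.58 and -1.14.

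Type IV collagen, the network former of basement membranes, is measured by Col4a1 and Col4a2, whose products wind together in 1 helix. Scaled counts of Col4a1 were 213, 707 and 505 in Scram+IgG, 296, 783 and 287 in ANT008+IgG, 277, 306 and 1061 in Scram+aPD-1 and 216, 182 and 205 in ANT008+aPD-1. The ANT008+aPD-1 values were within a narrow range at the low end, where Scram+IgG mouse 1 also lay, so that these groups overlapped. Their raw counts were 6, 231 and 17, the first below background and the last close to it, so the narrow range is in part one of scaled background. The log2 fold change of Col4a1 was -1.26 (edgeR FDR 0.456). Scaled counts of Col4a2 were 81.8, 206 and 135 in Scram+IgG, 111, 120.5 and 189.6 in ANT008+IgG, 76.9, 131 and 189 in Scram+aPD-1 and 324, 77.3 and 96.3 in ANT008+aPD-1, with no order among the groups, and its log2 fold change was -0.07 with the 2 shallow ANT008+aPD-1 lanes at or below background. With mouse 2 as the only ANT008+aPD-1 mouse, the log2 fold changes were -1.38 for Col4a1 and -0.86 for Col4a2.

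Laminins are 3-chain proteins of the basement membrane, and Lamb1 and Lamc1 encode the β1 and γ1 chains that many laminins share. Scaled counts of Lamc1 were 282, 566 and 651 in Scram+IgG, 393, 657 and 509 in ANT008+IgG, 323, 408 and 529 in Scram+aPD-1 and 252, 287 and 289 in ANT008+aPD-1. The ANT008+aPD-1 mice were low, Scram+IgG mouse 1 lay among them, and the remaining lanes were higher. The log2 fold change was -0.84 (SE 0.39, edgeR FDR 0.376), and Lamc1 had the smallest spread within groups of the 15 genes (SD 0.42 on the log2 scale). Lamb1, the laminin gene with the highest mean over lanes, had scaled counts of 208, 990.3 and 807 in Scram+IgG, 388, 1043 and 555 in ANT008+IgG, 259.8, 496 and 635 in Scram+aPD-1 and 288, 264 and 325 in ANT008+aPD-1, again with Scram+IgG mouse 1 below every ANT008+aPD-1 value and mice 2 and 3 far above. Its log2 fold change was -1.20 (SE 0.59, edgeR FDR 0.425). Lamc1 with 7 counts and Lamb1 with 8 were below background in ANT008+aPD-1 mouse 1. Lama4, which encodes the α4 chain of vessel walls, had between 1 and 152 counts a lane and was at or below background in each ANT008+aPD-1 lane, so its fitted value of 0.58 describes background there.

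The thrombospondin genes differed from each other in their values. Thbs1 encodes thrombospondin 1, a matricellular glycoprotein that holds back blood vessel growth, can activate latent TGF-β, is stored in platelets and is made by macrophages and fibroblasts among others. Its counts were 602, 56 and 687 in Scram+IgG, 591, 221 and 31 in ANT008+IgG, 1542, 286 and 120 in Scram+aPD-1 and 8, 513 and 34 in ANT008+aPD-1. On the scaled level these were 97.9, 53.3 and 107 in Scram+IgG, 93.9, 380.3 and 61.9 in ANT008+IgG, 274, 86.7 and 492 in Scram+aPD-1 and 288, 405 and 409 in ANT008+aPD-1. All ANT008+aPD-1 values lay above all Scram+IgG values (two-sided exact permutation p = 0.1, the smallest that 3 against 3 mice can give), although mouse 1, with 8 counts, did not exceed its background. The log2 fold change was 2.11 (SE 0.73, edgeR FDR 0.309), a 4.32-fold higher level, and it was 2.22 with mouse 2 as the only ANT008+aPD-1 mouse. Thbs2, a relative linked to fibroblasts and collagen assembly, had scaled counts of 54.0, 19.996 and 144 in Scram+IgG, 96.6, 134 and 33.9 in ANT008+IgG, 89.1, 77.9 and 53.3 in Scram+aPD-1 and 72.1, 50.5 and 24.1 in ANT008+aPD-1 and a log2 fold change of -0.68, with the groups overlapping. Its raw counts in the ANT008+aPD-1 lanes were 2, 64 and 2, the first and last below background, and with mouse 2 alone the value was -0.54.

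Among the growth factors, Vegfa encodes the main factor of blood vessel growth, which is induced by low oxygen and made by tumor, stromal and immune cells. Vegfa scaled counts were 227, 266 and 344 in Scram+IgG, 341, 309.8 and 641 in ANT008+IgG, 340.2, 624 and 250.001 in Scram+aPD-1 and 577, 528 and 385 in ANT008+aPD-1. Each ANT008+aPD-1 value exceeded each Scram+IgG value (two-sided exact permutation p = 0.1), and ANT008+IgG mouse 3 and Scram+aPD-1 mouse 2 were higher than any of them. The raw counts of Vegfa in the ANT008+aPD-1 lanes were 16, 669 and 32. The scaled background of mouse 1, 358, itself lay above every Scram+IgG value, so the separation of the mice carries background as well as signal. The log2 fold change was 0.82 (SE 0.43, edgeR FDR 0.456). Pdgfb, which encodes the platelet-derived growth factor B chain that recruits pericytes, had scaled counts between 36.1 and 121 and a log2 fold change of 0.19. With 3, 131 and 3 counts in the ANT008+aPD-1 lanes, mice 1 and 3 were below background, and the value was 0.51 with mouse 2 alone. Fgf1, which encodes acidic fibroblast growth factor, had a fitted log2 fold change of 1.36, yet its raw counts in the ANT008+aPD-1 lanes were 9, 35 and 8, with the first and the last at or below background. With mouse 2 as the only ANT008+aPD-1 mouse, the Fgf1 value was -0.67.

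The receptors were scarce. Egfr, the epidermal growth factor receptor of epithelial and tumor cells, was the receptor gene with the higher mean. Its scaled counts were 27.3, 114 and 73.7 in Scram+IgG, 61.7, 60.2 and 59.9 in ANT008+IgG, 32.7, 65.8 and 98.4 in Scram+aPD-1 and 72.1, 46.6 and 108 in ANT008+aPD-1. The groups overlapped, and the log2 fold change was -0.02 (SE 0.60, edgeR FDR 0.989). The 2 and 9 counts of ANT008+aPD-1 mice 1 and 3 were below background, and without these lanes the value was -0.61. Pdgfrb, the PDGF receptor β of fibroblasts and pericytes, had between 3 and 161 counts a lane. Its 3, 4 and 4 counts in the ANT008+aPD-1 lanes were below background, so the fitted log2 fold change of 1.37 describes scaled background.

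ANT008 alone was compared with the same Scram+IgG mice. In ANT008+IgG, 7 of the 15 genes were higher and 8 lower, with a median log2 fold change of -0.0025 against 0.11 over all tested genes. All 5 collagens were lower (median -0.26), although Col4a2 lay above the median of all genes under positive control scaling. The laminins had a median of 0.06. edgeR called 0 of 15 members and 0 of 640 genes (0%) at an FDR below 0.1, and at an unadjusted p below 0.05 there were 0 members and 3 genes (0.469%). Without Scram+IgG mouse 1 there were 55 genes at that p. DESeq2 called 0 genes, limma on log2 values 0, and voom with sample weights 44 genes with 2 members, Lama4 and Pdgfb. The members with the smallest p were Thbs1 and Vegfa. Thbs1 had a log2 fold change of 1.04 (SE 0.69, edgeR FDR 0.999), which came from ANT008+IgG mouse 2 with 380.3 against 93.9 and 61.9 in mice 1 and 3. Relative to the median of all genes it was 0.93, without mouse 2 it was -0.09, and with positive control scaling it was -0.0014. Vegfa was higher by 0.62 (SE 0.42, edgeR FDR 0.999), with overlapping mice. Pdgfrb was the 1 member whose mice were all higher than all Scram+IgG mice, as were 19 of 640 genes (2.97%), with 161, 8 and 13 counts against 71, 9 and 85, of which mouse 2 in both groups was at or below background.

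Anti-PD-1 alone was also set against Scram+IgG. In Scram+aPD-1, 7 members were higher and 8 lower, with a median of -0.11 against 0.15 over all tested genes. Relative to that median of all genes 5 members were above it, and 3 were under positive control scaling. The collagens were lower except Col4a1 (4 of 5, median -0.62), as were Lamb1 and Lamc1. Col4a1 moved to the lower side of the median of all genes under 4 of 5 other scalings. edgeR called 0 of 15 members and 0 of 640 genes (0%) at an FDR below 0.1. Thbs1 was the 1 member among the 7 genes (1.09%) with an unadjusted p below 0.05. Genes at that p numbered 81 without Scram+IgG mouse 1 and 0 without Scram+IgG mouse 2. DESeq2 and limma on log2 values called 0 genes, and voom with sample weights called 143 genes and 9 members. Thbs1 had a log2 fold change of 1.69 (SE 0.70, edgeR FDR 0.988), with 274 and 492 in Scram+aPD-1 mice 1 and 3 above all Scram+IgG mice and 86.7 in mouse 2 among them. Col6a2 was lower by a log2 fold change of -0.95 (SE 0.60, edgeR FDR 0.988). Mice 2 and 3 at 737 and 1250 were inside the range of the controls, and mouse 1 at 405 was below it.

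Set against the ANT008+IgG mice, ANT008+aPD-1 shows what anti-PD-1 added to ANT008. Of the 15 genes 5 were higher (3 above the median of all genes under positive control scaling) and 10 lower, with a median of -0.19 against -0.04 over all tested genes. With background subtracted 2 were higher (Fgf1 and Thbs1), and without ANT008+aPD-1 mice 1 and 3 there were 3 (Pdgfb, Thbs1 and Vegfa). Again the collagens (5 of 5 lower, median -1.31) and the laminins (3 of 3 lower, median -0.90) lay on the low side. edgeR called 0 members and 0 of 640 genes (0%) at an FDR below 0.1, and at an unadjusted p below 0.05 it gave 3 members (Col6a2, Col6a3 and Lamc1, all lower) among 50 genes (7.81%). DESeq2 called 5 genes, voom with sample weights 5 and limma on log2 values 0, with 0 members in each. Without ANT008+aPD-1 mouse 2, edgeR called 26 genes and 0 members. Every ANT008+aPD-1 mouse was below every ANT008+IgG mouse for 5 members, Col4a1, Col6a2, Col6a3, Lamb1 and Lamc1, and the same held for 47 of 640 genes (7.34%). For each of these 5 genes the two-sided exact permutation p was 0.1, the smallest possible. For 4 of these 5 genes, all but Col6a2, the count of ANT008+aPD-1 mouse 1 was at or below background. Col6a3 had a log2 fold change of -1.31 (SE 0.57, edgeR FDR 0.578) and Lamc1 of -0.90 (SE 0.39, edgeR FDR 0.578). Values for Col6a2 and Lamb1 were -1.42 and -1.18. In the same comparison 11 of 12 T cell markers were higher (median 0.94), and the mice were apart for Cd3d, Cd4, Cd28, Cd247 and Icos, all higher, as for 40 of 640 genes (6.25%), with the counts of Cd4 and Icos in ANT008+aPD-1 mouse 1 below background. The myeloid marker Cd14 was higher too, by 1.66 (edgeR FDR 0.578), with the mice apart.

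Set against Scram+aPD-1, the same mice show what ANT008 added to anti-PD-1. There 7 of the 15 genes were higher and 8 lower, with a median of -0.26 against -0.04 over all tested genes. Subtraction of background left 3 higher (Fgf1, Thbs1 and Vegfa), and without the 2 shallow lanes 4 were (the same 3 and Pdgfb). The collagens were lower except Col4a2 (4 of 5, median -0.92), and Lamb1 and Lamc1 were lower too. Under 1 of 5 other scalings Col6a2 lay above the median of all genes, and under 1 of them Col4a2 lay below it. edgeR called 0 members and 0 of 640 genes (0%) at an FDR below 0.1, and at an unadjusted p below 0.05 there were 2 members, Fgf1 higher and Col4a1 lower, among 40 genes (6.25%). DESeq2 called 5 genes, and voom and limma on log2 values 0, with 0 members in each. Without ANT008+aPD-1 mouse 2, edgeR called 35 genes and 1 member, Fgf1, whose remaining ANT008+aPD-1 counts of 9 and 8 were at or below background. Mice were apart for 3 members, Col4a1, Col6a3 and Lamc1, all lower, as for 47 of 640 genes (7.34%). In ANT008+aPD-1 mouse 1 these 3 members were below background, with 6, 8 and 7 counts, and Col6a3 with 6 counts was below it in mouse 3 too. Col4a1 had a log2 fold change of -1.46 (SE 0.66, edgeR FDR 0.751), with 1061 in Scram+aPD-1 mouse 3 against 277 and 306 in mice 1 and 2. The fitted value of Fgf1 was 2.15 (SE 0.88, edgeR FDR 0.751), and it was 0.12 with mouse 2 as the only ANT008+aPD-1 mouse. Of the T cell markers 10 of 12 were higher here (median 0.93), and the mice were apart for 6, all higher, as for 29 of 640 genes (4.53%), and of the 6 Cd3e, Cd27 and Icos were below background in ANT008+aPD-1 mouse 1. Cd14 was higher by 1.26 (edgeR FDR 0.751), again with the mice apart.

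The interaction asks whether both agents together differed from the sum of each alone. It was negative for 11 of 15 members and positive for 4, with a median of -0.62 against -0.17 over all tested genes. Relative to that median of all genes 4 members were above it, and 8 were under positive control scaling. With background subtracted, or without ANT008+aPD-1 mice 1 and 3, only Fgf1 was positive. edgeR called 0 members and 0 of 640 genes (0%) at an FDR below 0.1, and 1 member, Fgf1, was among the 9 genes (1.41%) at an unadjusted p below 0.05. DESeq2, voom and limma on log2 values called 0 genes, and without ANT008+aPD-1 mouse 2 edgeR called 1 gene and 0 members. The Fgf1 value of 2.52 (edgeR FDR 0.993) rests on the same background counts, and with mouse 2 as the only ANT008+aPD-1 mouse it was 0.49. These comparisons share mice, and the 3 against Scram+IgG share all of its lanes, so their values for a gene are not independent. For Col6a2 the values against Scram+IgG were -0.28 with ANT008 alone, -0.95 with anti-PD-1 alone and -1.70 with both. For Thbs1 they were 1.04, 1.69 and 2.11, and for Lamc1 they were 0.06, -0.26 and -0.84. The interaction of T cell markers was positive for 10 of 12 (median 0.82).

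Ratios of raw counts within a lane, were taken where both genes were above background. They compare the change of the ratio between lanes and not the levels of the genes, since probes can differ in efficiency. Over 12 lanes Col6a1 over Col6a2 ran from 0.465 to 1.47 with a median of 0.788. Over 10 lanes Col6a3 over Col6a2 ran from 0.309 to 0.866 with a median of 0.508, while in the 2 lanes left out for Col6a3 at or below background, ANT008+aPD-1 mice 1 and 3, it was 0.615 and 0.167. Lamb1 over Lamc1 ran over 11 lanes from 0.736 to 1.75 with a median of 1.13. The highest of these ratios was 3.17 times the lowest for Col6a1 and Col6a2, 2.81 times for Col6a3 and Col6a2 and 2.38 times for Lamb1 and Lamc1. Col4a1 over Col4a2 ran from 1.52 to 6.50 over 10 lanes, a factor of 4.29. Thbs1 over Thbs2 ran from 0.746 to 9.23 over 10 lanes, a factor of 12.4, and Thbs1 over Col6a2 from 0.0222 in Scram+IgG mouse 2 to 0.944 in ANT008+aPD-1 mouse 3 over 11 lanes, a factor of 42.6. In lanes where Thbs1 exceeded background, its ratio to Col6a2 was 0.200, 0.0222 and 0.0624 with Scram+IgG and 0.131, 0.182 and 0.0610 with ANT008+IgG. It was 0.677, 0.118 and 0.393 with Scram+aPD-1, and 0.787 and 0.944 in ANT008+aPD-1 mice 2 and 3, the highest of the 11 lanes. Beyond the ratios of Thbs1, pairs of genes from different proteins were not compared, so these ranges do not tell whether the chains of a protein moved together.

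Receptors and signal carriers that work with these genes were taken as a list of 12, all on the panel and all tested. They are the integrin chains Itga1, Itga11, Itgam, Itgb1, Itgb2 and Itgb5, the thrombospondin receptor Cd36, the VEGF receptor Flt1, the insulin receptor Insr and the TGF-β signal carriers Smad2, Smad3 and Smad4. Flt1 stands also in the endothelial list and Itgam in the myeloid list. In ANT008+aPD-1 against Scram+IgG 6 were higher and 6 lower (median 0.11), and 0 passed an FDR of 0.1 with edgeR. Flt1 and Insr, both lower, had an unadjusted p below 0.05 by edgeR, as had 82 of all 640 genes (12.8%). Scaled counts of Flt1 were 45.4, 131 and 80.7 in Scram+IgG, 39.1, 82.6 and 61.9 in ANT008+IgG, 44.1, 45.2 and 86.1 in Scram+aPD-1 and 36.0, 37.1 and 24.1 in ANT008+aPD-1. Each ANT008+aPD-1 mouse was below each Scram+IgG mouse, as for 37 of 640 genes (5.78%), with 1 and 2 counts in mice 1 and 3. The log2 fold change of Flt1 was -1.35 (edgeR FDR 0.352). Itgb1, the common β1 chain that binds collagens and laminins, had a log2 fold change of -0.32, and Itga1, its partner in a collagen receptor carried by activated T cells, of 0.60. With ANT008+IgG 9 of the 12 were higher and 3 lower, and with Scram+aPD-1 8 were higher and 4 lower, again with 0 at an FDR below 0.1. Relative to the median of all genes, between 8 and 9 of the 12 were above it with ANT008+IgG and between 5 and 7 with Scram+aPD-1 under 5 other scalings. In ANT008+aPD-1, 4 of the 12 were higher and 8 lower against ANT008+IgG, and as many against Scram+aPD-1. Itga1, Itga11 and Itgam were higher in both, Itgb2 only against ANT008+IgG and Smad2 only against Scram+aPD-1. Itga11, with 3, 15 and 7 counts, was below background in each ANT008+aPD-1 lane, so its fitted values describe scaled background, and Cd36, Flt1, Insr, Smad2 and Smad4 were above background there only in mouse 2. Itga1, Itgam, Itgb5 and Smad3 were below it in mouse 1, and Itgb1 and Itgb2 were above it in all 3.

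The T cell markers are given by the same counts. In ANT008+aPD-1 against Scram+IgG 11 of the 12 were higher and 1 lower (median 0.90), with 0 at an FDR below 0.1. Cd28 and Cd247 had an unadjusted p below 0.05 by edgeR, as had 82 of all 640 genes (12.8%). Under each of 5 other scalings 11 of the 12 also lay above the median of all genes. With ANT008+IgG 6 were higher and 6 lower (median -0.03), with 1 above the median of all genes and 10 above it under positive control scaling. With Scram+aPD-1 8 were higher and 4 lower (median 0.07), with 5 above the median of all genes and from 5 to 6 under the other scalings. In ANT008+aPD-1 against Scram+IgG the myeloid marker Cd14 was higher by 2.36 (edgeR FDR 0.242), Itgam by 1.15 (FDR 0.458) and Cd68 by 0.558 (FDR 0.739).

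Each gene is read through a target of 100 bases in its transcript, as the panel's definition gives it. Targets for 2 collagen genes are printed to show which part of each transcript a count reads. The capitals mark 11 codons of the form GGN, which encode glycine, at 1 in every 3 codons of Col4a1, the mark of the collagen triple helix, and 1 of the 748 targets (0.134%) has such a frame. In Col6a2 they mark 5 codons with aspartate at the first and serine at the third and the fifth, the arrangement of a metal ion site of von Willebrand factor A domains. In an open frame 9 of 748 targets (1.20%) hold this arrangement, and the target was not mapped to a protein domain. The longest run that any pair of the 15 targets shares is 10 bases, in Pdgfb and Thbs2.
Col4a1: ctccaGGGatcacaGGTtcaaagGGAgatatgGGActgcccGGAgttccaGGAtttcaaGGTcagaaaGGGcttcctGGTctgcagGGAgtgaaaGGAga
Col6a2: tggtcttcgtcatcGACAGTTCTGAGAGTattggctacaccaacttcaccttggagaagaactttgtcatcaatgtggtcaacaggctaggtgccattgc

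Since type VI collagen genes held much of the count of the members, their promoters are shown as the 250 bases before the outermost annotated start of each gene, 5′ to 3′ on the gene's own strand, from RefSeq on GRCm38.p6. A promoter entry was found for 9 of the 15 members. Col6a1 and Col6a2 lie on chromosome 10, at chr10:76726045-76726294 and chr10:76623631-76623880, and Col6a3 on chromosome 1 at chr1:90843972-90844221, each on the minus strand. Col6a2 has 2 annotated starts and each of the other genes 1. Capitals mark CCCTCCC or GGGCGG on either strand. CCCTCCC is found 5 times in Col6a1, where 3 of the matches overlap in 1 run, and 1 time in each of Col6a2 and Col6a3. GGGCGG is found 1 time in Col6a2 and 0 times in the others, and TATAAA 0 times in all 3. Of 32851 promoters of the same length, 19.7% hold CCCTCCC, 32.7% GGGCGG and 12.4% TATAAA on either strand. These matches describe letters and not sites of binding.
Col6a1: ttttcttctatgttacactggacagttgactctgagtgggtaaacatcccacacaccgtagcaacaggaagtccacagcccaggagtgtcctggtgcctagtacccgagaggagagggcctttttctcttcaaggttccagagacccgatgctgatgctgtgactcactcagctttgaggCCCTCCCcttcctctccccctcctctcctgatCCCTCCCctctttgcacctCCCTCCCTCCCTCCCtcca
Col6a2: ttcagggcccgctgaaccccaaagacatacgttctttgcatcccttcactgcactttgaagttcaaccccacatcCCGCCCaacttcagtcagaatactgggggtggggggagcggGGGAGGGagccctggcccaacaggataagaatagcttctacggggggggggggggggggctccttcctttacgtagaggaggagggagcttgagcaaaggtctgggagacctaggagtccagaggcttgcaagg
Col6a3: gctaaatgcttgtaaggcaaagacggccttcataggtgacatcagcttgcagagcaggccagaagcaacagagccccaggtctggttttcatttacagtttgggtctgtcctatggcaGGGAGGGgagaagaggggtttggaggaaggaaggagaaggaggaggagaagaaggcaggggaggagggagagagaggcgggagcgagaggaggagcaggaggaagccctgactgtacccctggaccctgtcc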

How the data were processed

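RNA of CD90.2 bead isolates from 12 tumors, 3 mice in each of 4 groups, was measured on an nCounter panel of metabolic genes. The authors deposited each probe's raw count per lane, a whole number with no background subtraction or scaling, and the vendor's panel definition gave the probe targets. Groups and mouse numbers come from the sample titles.

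Each lane's 8 negative control probes set its background, at their mean plus 2 SD. Lane size came from the geometric mean of those housekeeping genes that exceeded background in all 12 lanes, 3 of 20. Of 748 endogenous genes, the 640 that exceeded background in at least 3 lanes were fitted with edgeR 4.0.16 in R 4.3.3 (quasi-likelihood, raw counts, log lane size as offset, 4 groups in 1 fit, no covariate), and p-values were adjusted over all 640 genes by Benjamini-Hochberg and called at an FDR below 0.1. Standard errors follow from the test statistic. Single genes were compared between groups by the two-sided exact permutation test on log2(scaled count + 1), for which 3 against 3 mice cannot go below 0.1. Other work used Python 3.11.15, pandas 2.3.3, scipy 1.17.1 and matplotlib 3.10.9, with limma 3.58.1 and DESeq2 1.42.0 for alternatives.

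All members could be named with counts. Full statistics were given for the 4 members with the smallest p in ANT008+aPD-1 against Scram+IgG, the 2 with the smallest in each other pairwise comparison and the member of each role with the highest mean. The lists of roles, partner genes and markers, like the members, were chosen with earlier results of these data known. Alternatives were other scalings (TMM, positive controls, total count, all housekeeping genes), no gene filter or a stricter one, subtracted background, DESeq2 with its own size factors (the fifth of the other scalings), limma on log2 values, limma's voom with sample weights, a replicate block, a fit of the compared groups, and leaving out each mouse, the 2 shallow ANT008+aPD-1 lanes or the 2 lanes (Scram+IgG mouse 1 and ANT008+IgG mouse 1) that the deposited table marks with the word FLAG.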

Additional observations from a re-analysis of the deposited data

How the results depend on the processing

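The results concern the count of genes and of members called at an FDR below 0.1 and the difference between the median log2 fold change of the members and that of all tested genes. Against Scram+IgG, the genes called with ANT008+aPD-1 numbered 2 with TMM scaling, 1 with scaling by the total, 30 with DESeq2, 156 with voom and 83 without the 2 lanes marked FLAG, and from 0 to 84 with each mouse left out. Members called were 2, 4 and 4 with DESeq2, voom and without the marked lanes, and from 0 to 4 with each mouse left out. With voom, ANT008+IgG had 44 genes and 2 members called, and Scram+aPD-1 had 143 genes and 9 members. ANT008+aPD-1 against ANT008+IgG had 5 genes called with DESeq2, 5 with voom and from 0 to 26 with each mouse left out. ANT008+aPD-1 against Scram+aPD-1 had 5 with DESeq2, from 0 to 35 with each mouse left out and from 0 to 1 members. The interaction had from 0 to 1 genes. The cause of these shifts was not tested.

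With the filter of genes above background in all lanes, which leaves 3 members (Col6a1, Col6a2 and Vegfa), the difference of medians moved from -0.19 to -1.78 for ANT008+aPD-1 against Scram+IgG, from -0.27 to -1.09 for Scram+aPD-1 and from -0.15 to -1.35 for ANT008+aPD-1 against ANT008+IgG. With each mouse left out, this difference ran from -0.79 to -0.11 for ANT008+aPD-1 against Scram+IgG, from -0.38 to 0.19 for ANT008+IgG (-0.11 in the main fit), from -0.52 to -0.06 for Scram+aPD-1, from -0.85 to -0.11 against ANT008+IgG and from -0.73 to -0.12 against Scram+aPD-1 (-0.22 in the main fit, 0.11 with positive control scaling). For ANT008+IgG its sign depends on the mice. Relative to the median of all genes, Thbs1 in ANT008+IgG against Scram+IgG reversed from 0.93 to -0.0014 with positive control scaling and to -0.0905 without ANT008+IgG mouse 2, within a range of -0.0905 to 1.2594 with each mouse left out. Egfr in ANT008+aPD-1 against Scram+IgG reversed from -0.14 to 0.12 with positive control scaling, 0.074 with limma on log2 values, 0.31 without Scram+IgG mouse 2 and 0.05 without ANT008+aPD-1 mouse 2. The cause was not tested. Over the alternatives the log2 fold change minus the median of all genes in ANT008+aPD-1 against Scram+IgG ran from 1.67 to 2.49 for Thbs1 (1.99 in the main fit), and in the same way Col6a2 ran from -2.24 to -0.99, Col6a3 from -2.67 to -0.84, Lamc1 from -1.34 to -0.53 and Vegfa from 0.23 to 1.19.

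Mice that share a number are separate animals. Correlations of their deviations from the group means ran from -0.64 to 0.78. Scram+IgG mouse 1 correlated at 0.781 with ANT008+IgG mouse 1 and at 0.757 with Scram+aPD-1 mouse 1, and the latter 2 at 0.679. With ANT008+aPD-1 mouse 1 these mice gave -0.105, -0.107 and -0.253. Some mice of unlike number also correlated, as ANT008+IgG mouse 2 and Scram+aPD-1 mouse 3 at 0.719. Whether the lanes of mouse 1 share a source of variation was not tested. With the number as a replicate block 0 genes were called in each comparison, as without it. Depth limits most of what ANT008+aPD-1 mice 1 and 3 can show, since their counts of these genes lie near background.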
